A study of Apis mellifera with 13 samples.

Results

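The genes described here are the structural and chitin-handling genes of the cuticle, followed in the antennae of adult honey bee workers. They were taken by their symbols in the deposited gene tables: names made of CPR, CPF, Cht or Osi and a number, of Cda and a digit, and names that start with Apd, Cpap or CPLCP. The rule found 50 of 13414 genes, namely 28 CPR, 2 CPF, 3 Apd, 5 Cpap, 2 Cda, 3 Cht and 7 Osi genes, and no CPLCP gene.

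RNA was extracted from flagella (the many-segmented end of the antenna that carries the sensory hairs) of hybrid ligustica and carnica workers and sequenced in 13 libraries. The 4 groups stand in 2 tables that the authors normalised separately, so values are compared only within a table. VSH bees (4 libraries, mean ages 7.5, 9.75, 12.5 and 17 days) had been tagged at emergence and were watched while they uncapped cells holding brood parasitised by the mite Varroa destructor, widened them or cleared them out, the behaviour called Varroa sensitive hygiene. NVS bees (4 libraries, mean ages 7.5, 9.5, 12.25 and 17.5 days) were tagged workers from that observation hive in which no such task was seen. Foragers (FOR, libraries 2 and 3) were caught returning with pollen and nurses (NUR, libraries 1, 2 and 3) while tending cells with young larvae, in 3 standard hives, and their ages are unknown. Every library is a pool, of 4 pairs of antennae in the sample records and of 8 pairs in the methods, which join 2 extractions of 4 pairs. All VSH and NVS bees lived in 1 hive, so p-values in that table measure the spread between pools from that hive.

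The insect cuticle is built of chitin fibres, a polymer of N-acetylglucosamine, embedded in proteins, and it forms the wall and the pores of the sensory hairs on the antenna. CPR proteins carry the Rebers and Riddiford chitin-binding region, CPF proteins and apidermins (Apd) are structural proteins of other families, and Cpap3 proteins bind chitin through domains of the kind found in peritrophins. Chitin deacetylases (Cda) and chitinases (Cht) alter and degrade the polymer. Osiris proteins (Osi) are an insect family found at membranes and vesicles of cells that secrete cuticle, and in Drosophila Osi23 is needed to form the nanopores in the wall of olfactory hairs.

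The values are pseudo-counts, reads per gene scaled to a common library size by the authors and not divided by gene length, so levels of different genes are not ranked here. The depth of single libraries cannot be read from the normalised columns. Known antennal genes (10 of the list, with odorant binding proteins among them) summed to 1797950 to 1912910 in FOR and NUR libraries and to 983401 to 1271780 in VSH and NVS libraries, so the genes that mark the antenna were present. NUR2 stood apart from the other libraries of its table: it lay at 66.1 on a first principal component holding 46.8% of the variance, against -37.2 to 5.23 for the other 4. Its antennal sum hid single genes that differed: 3 of the 10 were highest in NUR2. Obp2, Obp4, Obp5, Obp6, Obp11 and Or2 were lowest there, Obp5 at 96532 against 156313 to 193668 in the other 4. VSH4 stood apart in the sum of muscle genes, at 1722 over 7 genes against 123 to 182 in the other 7 libraries of its table. TpnCIIIb of that list went the other way, at 6.97 in VSH4 against 9.62 to 38.1. The sum of fat body and haemolymph genes in VSH4 was 4756 over 6 genes against 1117 to 1858. Vg held 2146 and Rfabg 2076 of it, while HEX70b had 10.3 in VSH4 and 31.3 in VSH2, and Hex70c had 0 in VSH4.

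Not all cuticle genes were detected in the adult antenna. In all 13 libraries 12 members were listed at 0: CPR1, CPR2, CPR3, CPR4, CPR18, CPR24, 1 of the 2 gene models named CPR22, the chitinase Cht11 and Osi9, Osi18, Osi19 and Osi20. CPR10, CPR16 and Osi7 were detected at no more than 3.73 in any library, and with them 15 members stayed under the filter of both tables, which asks for a sum of 20 across VSH and NVS bees or of 15 across foragers and nurses. This left 32 members tested in VSH and NVS bees, 34 in foragers and nurses, and 31 in both. Genes at 0 often lay side by side. In the gene order of the later assembly Amel_HAv3.1, CPR1 to CPR4 follow one another with no protein-coding gene between them, and so do Osi17, Osi18, Osi19 and Osi20, of which Osi17 alone was detected, at 0 to 9.42. CPR18 at 0 lies between CPR17 and CPR21, with CPR22 (GB46312) after them and CPR14 1 gene further on. The structural protein genes Apd-3, Apd-1 and Apd-2 are neighbours, as are CPF2 and CPF1, CPR13, CPR12 and CPR28, and Cpap3-e and CPR23. Reads that near-identical copies of such clusters share could be counted for either copy or for none, which was not tested.

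**Figure D1:**
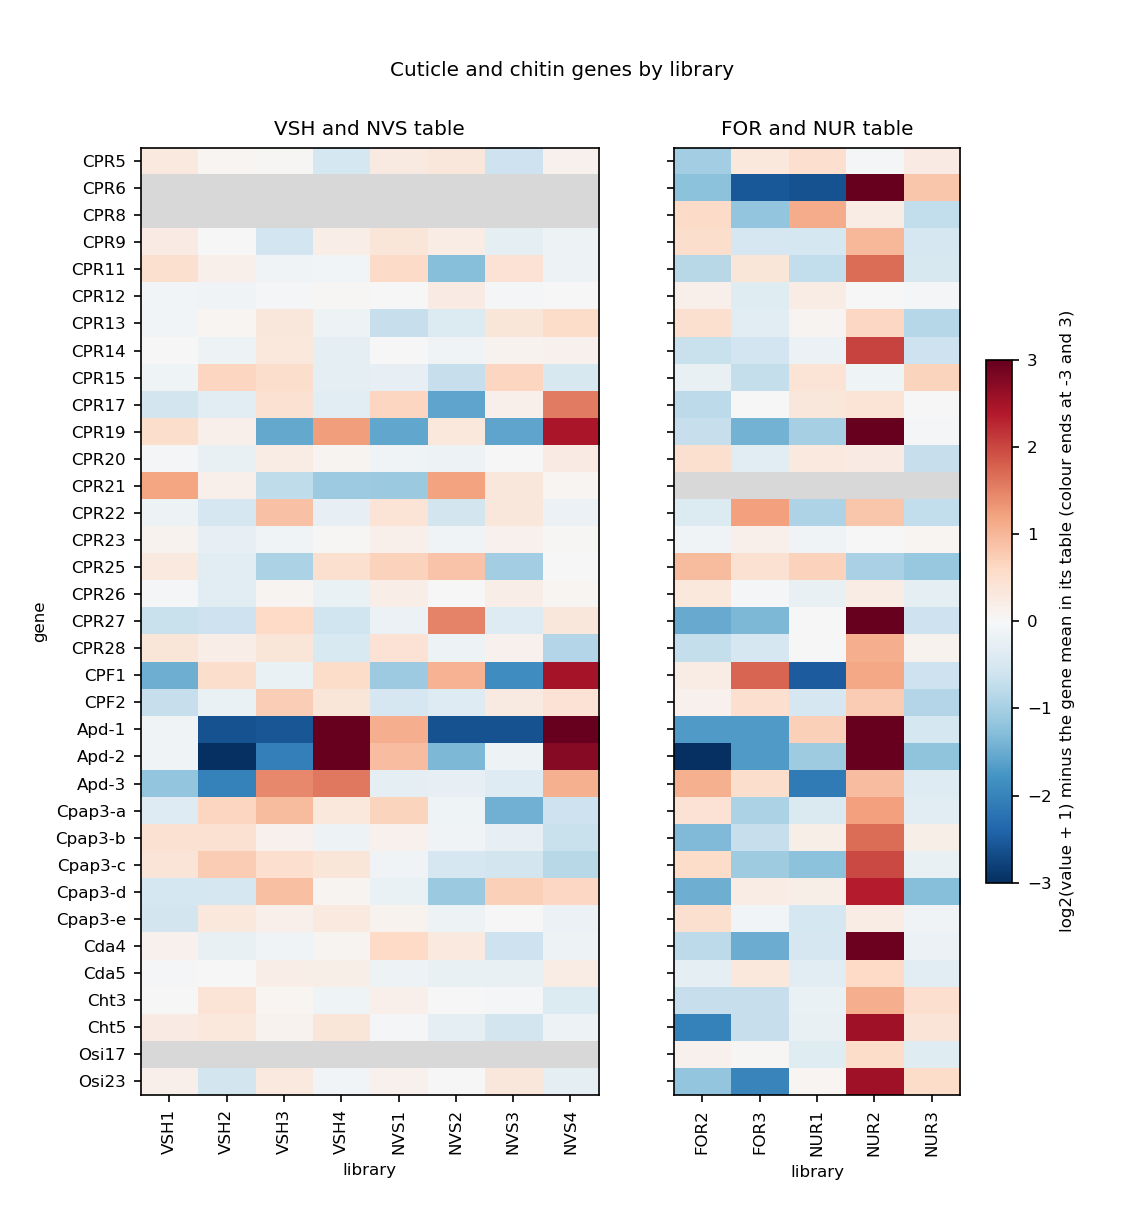
Each row is a cuticle or chitin gene tested in at least 1 table and each column a library. Colour is log2(value + 1) minus the mean of that gene over the libraries of its table, and grey marks genes under the filter of that table. The NUR2 column is red for most genes, and Apd-1 and Apd-2 are red in VSH4 and NVS4.

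The comparison of foragers with nurses asks how antennal expression differs between the outdoor and the indoor tasks of a worker. Many cuticle genes had their high values in 1 nurse library, NUR2. The 50 members held 0.198% of all values in NUR2, against 0.0440% and 0.0462% in FOR2 and FOR3 and 0.0555% and 0.0496% in NUR1 and NUR3. NUR2 was the highest of the 5 libraries for 22 of 34 members tested and the lowest for none, while over all genes tested it was the highest for 27.2% and the lowest for 27.2%. It reached at least 2 times the highest other library for 13 members, against 2.32% of all genes tested. Those 13 genes come from 6 of the families.

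Among the structural proteins, the apidermin Apd-2 showed the widest gap. It had 0.266 and 4.17 in foragers, against 6.98, 3436 and 6.20 in nurses. The level in NUR2 was 492 times the highest other library, while the neighbouring gene Apd-3 had 8.11 and 5.31 in foragers, against 0, 7.27 and 2.32 in nurses, with NUR2 among the forager values. Apd-1, between them in the genome, was listed at 0 in both forager libraries, against 4.31, 28.2 and 1.24 in nurses. Highest in NUR2 was also CPR6, with 9.53 and 3.23 in foragers, against 3.04, 1149 and 42.99 in nurses, where NUR3 came next. CPR27 had 8.39 and 9.50 in foragers, against 25.9, 296 and 16.2 in nurses. CPR19, which has 5 genes between it and CPR27, had 25.4 and 14.9 in foragers, against 20.3, 373 and 40.4 in nurses. CPR11 had 12.8 and 30.5 in foragers, against 13.6, 76.5 and 16.6 in nurses. These CPR genes encode chitin-binding structural proteins, and in each of them the other 4 libraries stayed at or below 43.0 pseudo-counts. CPR14 stood out by its amount: it had 5369 and 5706 in foragers, against 7436, 34583 and 5511 in nurses, which was 52.1% of all member values in NUR2 and 32.0% to 39.6% in the other 4 libraries of the table, on values that are not divided by length.

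Genes that bind or alter chitin were high in NUR2 as well. Cda4, a chitin deacetylase, had 248 and 152 in foragers, against 305, 3336 and 381 in nurses. The chitinase Cht5, which degrades old cuticle at the moult in other insects, had 17.1 and 45.3 in foragers, against 62.2, 434 and 95.96 in nurses. Of the Cpap3 proteins, Cpap3-d had 73.2 and 238 in foragers, against 231, 1051 and 83.3 in nurses and Cpap3-c had 198 and 64.6 in foragers, against 57.4, 534 and 116 in nurses. For both genes NUR2 was the only nurse library above both forager libraries. Cda5 was nearly level instead, with 1002 and 1513 in foragers, against 968, 1837 and 977 in nurses, which gave a log2 fold change of 0.035 (95% interval -0.72 to 0.78).

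**Figure D2:**
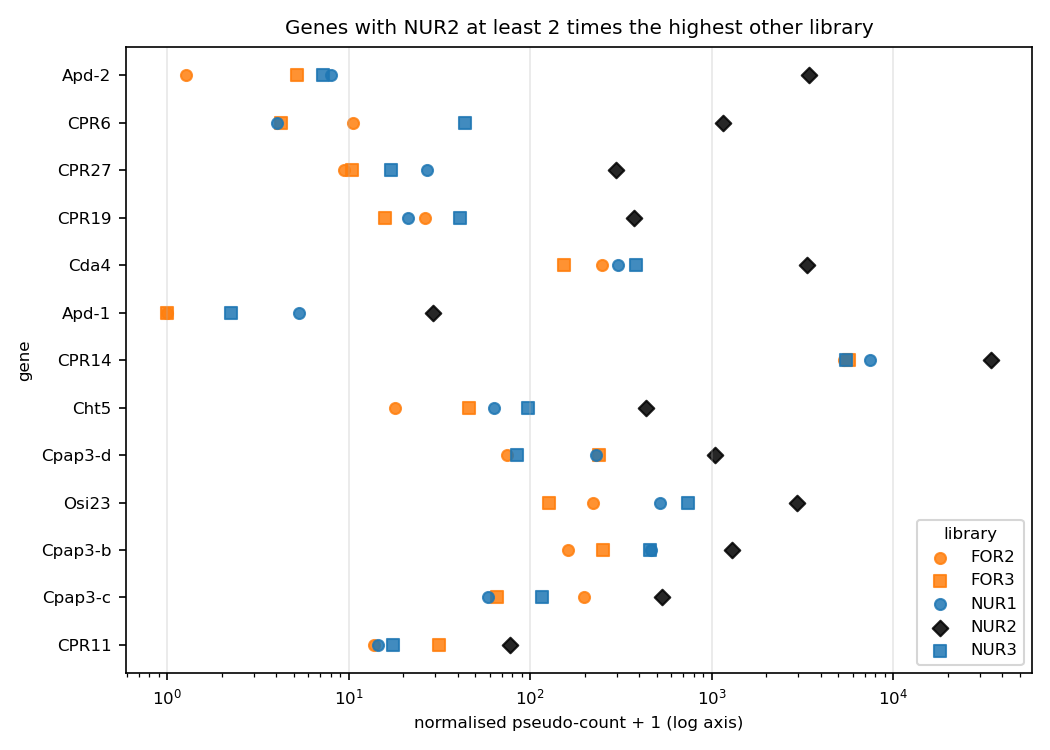
Values of the 13 cuticle genes for which NUR2 had at least 2 times the highest other library, by library, as pseudo-count + 1 on a log axis; orange marks foragers, blue NUR1 and NUR3, black NUR2. Apd-2 reached 3436 in NUR2 and at most 6.98 in the other 4 libraries, and CPR14 reached 34583 in NUR2.

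Other genes moved in NUR2 beside these. On a list of 17 genes of cuticle tanning and melanin, 15 of them tested, NUR2 was the highest library for 7 and the lowest for 4, at least 2 times the highest other for 4 and under 1/2 of the lowest other for 2, where 4.12% of all genes lay that low. TyHyd, the tyrosine hydroxylase that starts the tanning pathway, had 2038 and 3574 in foragers, against 1622, 20544 and 1973 in nurses. Dat (GB51044), a dopamine N-acetyltransferase that makes a precursor of colourless cuticle cross-links, had 6837 and 7234 in foragers, against 9291, 26541 and 11112 in nurses. The other way went Y-f, a gene of the yellow family, with 5520.3 and 6061 in foragers, against 5094, 2271 and 6510.1 in nurses, and a second gene named Dat (GB40867), with 130.2 and 201 in foragers, against 142, 52.8 and 127 in nurses. A list of 9 genes of chitin synthesis and cuticle assembly, 8 of them tested, also took in CYP302A1, Cyp314a1 and CYP315A1, enzymes of moulting hormone synthesis. On this list NUR2 was the highest library for 5 genes and the lowest for 1, none of them these enzymes. The group I chitin deacetylase serp had 205 and 296 in foragers, against 434, 2221 and 514 in nurses. Another, verm, had 689 and 669.5 in foragers, against 414, 1573 and 555 in nurses. Marker genes of other cell types also differed in this library. Haemocyte genes, of which PPO is also on the tanning list, summed to 3263 over 4 genes in NUR2, with 2 of them highest there. They summed to 2788 in NUR1, 3087 in NUR3 and 1517 and 2039 in foragers. Fat body genes summed to 3450 over 6 genes against 2255 to 2808 in the other 4, with 3 of them highest in NUR2. Rfabg held 2822 of that sum, with 2737 in FOR2, while Hex110 had 0.0946 in NUR2 against 18.6 to 22.2 in the other 4. Photoreceptor genes summed to 231 over 4 genes against 83.7 to 146, with Uvop at 0 in every library. Blop held 208 of that sum and was the only gene of the list highest in NUR2. The sum of head gland genes was lowest in NUR2, at 810.4 over 5 genes against 938 to 3581 in the other 4. Hbg3 held 715 of that sum, and Hbg3 and Mrjp3 were lowest in NUR2. Mrjp1 and Mrjp2 were lower in FOR2 and NUR1 than in NUR2, and Gld was lower in NUR1. The muscle sum was also lowest in NUR2, at 104 over 7 genes against 126 to 332. Of these genes TpnCIIIa and TpnCIIIb were lowest in NUR2, and Mp20 was at 0 in every nurse library. Mhc1 and TpnT were lower in NUR3 than in NUR2, Mlc2 was lower in NUR1, and TpnI was lower in NUR1 and FOR3. The part of these cells and of any difference in age in the cuticle values was not tested, and in pooled tissue fewer cells of a type cannot be told apart from less RNA per cell.

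No gene of the symbol rule passed the test between foragers and nurses. The paper, with edgeR on counts, lists a cuticle structure class among its differing genes, most of it higher in foragers. It set that class by function and not by symbol, so the 2 results cover unlike sets and tests. In limma on log2(value + 1), with Benjamini-Hochberg adjustment over all genes and a threshold of 0.05, 0 of 34 members were called, where 0.0958% of all genes were. At an unadjusted p under 0.05 there were 5 members, all lower in foragers, against 6.82% of all genes lower. The median log2 fold change of the members was -0.47, that of all genes 0.00037. Without NUR2 the limma fit called 0 of 33 members, against 0.825% of all genes, and the median of the members was -0.067. At an unadjusted p under 0.05 there were then 9, of which 3 were higher and 6 lower, against 6.55% and 6.04% of all genes.

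These 5 genes had the smallest p in the fit of all 5 libraries, and each stayed lower in foragers than in NUR1 and NUR3. Osi23, the Osiris gene (GB40438) tied to olfactory nanopores in Drosophila, had 221 and 126 in foragers, against 519, 2946 and 739 in nurses. Both foragers lay below every nurse, and the log2 fold change was -2.63 (standard error 0.69, limma adjusted p = 0.225), and -1.88 without NUR2 (standard error 0.32, limma adjusted p = 0.0505, the lowest over its alternatives, which reach 0.645). Cpap3-b, a chitin-binding protein, had 161 and 250.2 in foragers, against 461, 1294 and 455 in nurses, again without overlap, and its log2 fold change was -1.68 (standard error 0.48, limma adjusted p = 0.247), or -1.19 without NUR2. The structural protein gene CPR28 had 2589.9 and 3017 in foragers, against 4269.5, 9081 and 4576 in nurses. Here NUR1 and NUR3 were close to each other, above both foragers and below NUR2, and the log2 fold change was -1.01 (standard error 0.31, limma adjusted p = 0.287), or -0.66 without NUR2 (limma adjusted p = 0.0585, over its alternatives 0.0585 to 0.729).

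The chitinase Cht3 had 146 and 147 in foragers, against 208, 505 and 336 in nurses. This gave -1.16 on the log2 scale (standard error 0.38, limma adjusted p = 0.299) and -0.85 without NUR2. Its values in the pair of forager libraries were almost the same. Cht5 had a log2 fold change of -2.26 (standard error 0.85, limma adjusted p = 0.344) and of -1.43 without NUR2, and Cda4 one of -1.90 (standard error 0.96, limma adjusted p = 0.465) and of -0.81 without NUR2. For CPR14 the value was -1.02 with all libraries and -0.21 without NUR2, and for Cpap3-d it was -1.04 and -0.067, so the fold change of both genes came mainly from NUR2. Foragers and nurses did not overlap for 11 of 34 members, all lower in foragers, against 16.5% of all genes lower and 16.1% higher. Without NUR2 they did not overlap for 19 of 33, of which 9 were higher and 10 lower, against 21.6% and 22.7% of all genes.

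Some structural genes were higher in foragers on average, and none passed the test. CPF2 had 117 and 152 in foragers, against 74.6, 179.8 and 57.2 in nurses, and its log2 fold change was 0.54 (standard error 0.51), or 1.02 without NUR2 (limma adjusted p = 0.296). Its neighbour CPF1 had 5.50 and 17.8 in foragers, against 0, 11.4 and 2.63 in nurses. CPR22 (GB46312) had 313 and 971 in foragers, against 217, 741 and 248 in nurses, and FOR3 and NUR2 were its high libraries. CPR25 had 55.4 and 39.1 in foragers, against 45.96, 13.8 and 12.1 in nurses, with NUR1 between the forager values, and CPR26 had 1292 and 1017 in foragers, against 889, 1218 and 853 in nurses. The log2 fold change of CPR25 was 1.19 (standard error 0.67) and that of CPR26 0.24 (standard error 0.20). Cpap3-e had 859.7 and 586 in foragers, against 429, 714 and 573 in nurses, and with NUR2 between the foragers its log2 fold change was 0.34 (standard error 0.27). CPR20 had 582 and 333 in foragers, against 512, 496 and 256 in nurses, at 0.13 (standard error 0.38), with NUR3 and FOR3 its low libraries. CPR13 had 37.4 and 21.2 in foragers, against 28.4, 42 and 14.3 in nurses, at 0.12 (standard error 0.61), and its nurse libraries lay on both sides of the foragers. Osi17 had 6.80 and 6.35 in foragers, against 4.60, 9.42 and 4.59 in nurses, at 0.14 (standard error 0.73). Close to level were CPR23, at 0.036 (95% interval -0.46 to 0.53), and CPR12, at -0.17 (95% interval -0.60 to 0.27).

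**Figure D3:**
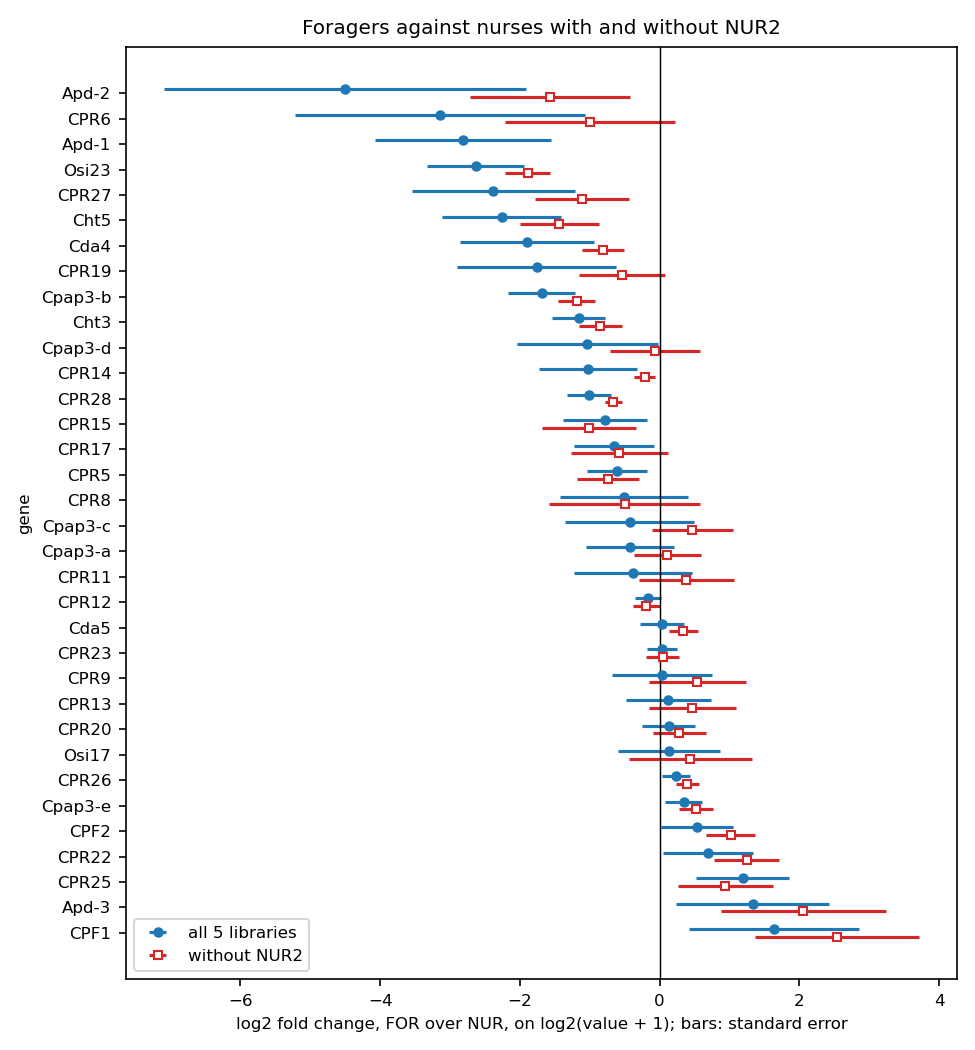
Log2 fold change of foragers over nurses for the 34 cuticle genes tested, with all 5 libraries (blue) and without NUR2 (red, 33 genes), with standard errors; negative is lower in foragers. Apd-2 lies at -4.51 with NUR2 and -1.57 without, while Osi23 lies at -2.63 and -1.88.

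VSH bees were set against NVS bees to find antennal genes tied to the hygienic task. Cuticle genes as a group were level between them: the median log2 fold change over 32 members was -0.035, with 14 above and 18 below 0. Limma called 0 of the 32, against 0.0392% of all genes. At an unadjusted p under 0.05 there were 3, 2 higher and 1 lower in VSH bees, against 5.73% and 5.43% of all genes. The paper, with edgeR on counts, reported far more differing genes than limma called here, in this comparison and between foragers and nurses. With the age-matched libraries of the same number as blocks, limma called 0 members, where 1.24% of all genes were called, and at an unadjusted p under 0.05 there were 4, of them 3 higher and 1 lower, against 17.1% of all genes.

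The Cpap3 proteins, which bind chitin, included the members with the smallest and the second smallest p, Cpap3-c and Cpap3-b. Cpap3-c (GB41203) had 31.9, 41.8, 34.7 and 31.3 in VSH libraries, against 22.7, 16.8, 16.1 and 13.2 in NVS libraries. The groups did not overlap, and the means were 34.9 ± 4.80 and 17.2 ± 3.96 (SD, n = 4 libraries each), a log2 fold change of 0.996 (standard error 0.27, limma adjusted p = 0.244). Cpap3-b had 336, 331, 268 and 218 in VSH libraries, against 265, 227, 204 and 153 in NVS libraries. Each VSH library was above the NVS library of its number, while the groups overlapped, and the log2 fold change was 0.45 (standard error 0.18, limma adjusted p = 0.388). Its adjusted p was 0.0691 in limma with the block, and 0.0691 to 0.697 over its alternatives. Cpap3-a had 32.3, 66.8, 82.6 and 53.2 in VSH libraries, against 67.8, 38.95, 15.1 and 27.4 in NVS libraries, with 3 of 4 VSH libraries above the NVS library of the same number, and a log2 fold change of 0.76 (standard error 0.41). This value was 0.40 to 1.10 with 1 library left out and 1.36 without VSH1 and NVS1. Cpap3-e had 141, 259, 229 and 255 in VSH libraries, against 221, 187, 204 and 183 in NVS libraries, and its values overlapped. Of the 5 Cpap3 genes 4 had a positive value, with Cpap3-e at 0.12 and Cpap3-d at -0.014, where 49.4% of all genes had one.

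Cht5 had 33.1, 34.9, 30.2 and 36.1 in VSH libraries, against 27.04, 22.7, 18.6 and 24.97 in NVS libraries, again without overlap between the groups, and a log2 fold change of 0.52 (standard error 0.25, limma adjusted p = 0.465). Cpap3-c and Cht5 were the 2 members of 32 whose groups did not overlap, against 2.86% of all genes that were higher in VSH bees and 3.26% that were lower. The other chitinase, Cht3, had 123, 166, 130.0 and 115 in VSH libraries, against 138, 124, 121 and 93.95 in NVS libraries, and its values overlapped. The deacetylase Cda5 had 567, 589.8, 676 and 660.1 in VSH libraries, against 529, 502, 504 and 685 in NVS libraries, with NVS4 the highest of the 8, and its log2 fold change was 0.18 (standard error 0.11). Cda4 had 203, 158, 173 and 197 in VSH libraries, against 282, 227, 121 and 168 in NVS libraries, and its interval ran from -0.54 to 0.41 on the log2 scale. In VSH4, where the muscle and fat body sums were high, Cpap3-c and Cpap3-b had the lowest values of the VSH libraries. Cht5 had 36.1 in VSH4 against 30.2 to 34.9 in the other 3.

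Among the structural proteins 1 gene, CPR26, had an unadjusted p under 0.05, and it was lower in VSH bees. CPR26 had 600.0, 495, 652 and 538 in VSH libraries, against 704, 618, 703 and 637 in NVS libraries. Each VSH library was below the NVS library of its number, and the log2 fold change was -0.22 (standard error 0.098, limma adjusted p = 0.419). CPR27 had 33.9, 35.01, 82.3 and 35.5 in VSH libraries, against 48.2, 155, 41.5 and 68.8 in NVS libraries, with VSH3 and NVS2 apart from the rest of their groups and a log2 fold change of -0.64 (standard error 0.40). The apidermin Apd-2 had 7.46, 0, 1.18 and 81.9 in VSH libraries, against 16.2, 2.58, 7.19 and 59.4 in NVS libraries. Its groups overlapped widely, and it had the largest fold change in size of the members tested, at -1.08 with a standard error of 1.18 (limma adjusted p = 0.765). CPR28 had 2242, 2009.6, 2256 and 1289 in VSH libraries, against 2386, 1586, 1909 and 951 in NVS libraries, a log2 fold change of 0.23 (standard error 0.24). CPR14 had 4945, 4365, 6079 and 4032 in VSH libraries, against 4849, 4570.4, 5232 and 5308 in NVS libraries, and the 95% interval of its log2 fold change was -0.29 to 0.18. CPR12 had 933, 923, 951 and 1011 in VSH libraries, against 996, 1183, 969 and 977 in NVS libraries, at -0.11 (95% interval -0.28 to 0.065), and CPR23 had 218, 170.5, 187 and 205 in VSH libraries, against 224, 187, 222 and 208 in NVS libraries, at -0.11 (95% interval -0.38 to 0.16). Other CPR genes had wider spreads and overlapping groups. CPR25 had 70.1, 44.9, 28.7 and 79.4 in VSH libraries, against 92.7, 103, 27.2 and 56.8 in NVS libraries, at -0.26 (standard error 0.41). CPR17 had 6.74, 7.97, 14.5 and 8.06 in VSH libraries, against 16.5, 2.75, 11.4 and 31.99 in NVS libraries, at -0.37 (standard error 0.58), with NVS2 the lowest and NVS4 the highest of the 8 libraries. CPR15 had 8.76, 15.7, 14.4 and 7.72 in VSH libraries, against 8.02, 5.64, 15.7 and 6.63 in NVS libraries, at 0.38 (standard error 0.43), and VSH2, VSH3 and NVS3 were its high libraries. The Osiris genes overlapped as well. Osi23 had 243, 149, 268 and 208 in VSH libraries, against 239, 218, 278 and 181 in NVS libraries, and Osi17, detected at low level, had 2.10, 0, 2.68 and 4.497 in VSH libraries, against 1.88, 0, 4.21 and 0.0327 in NVS libraries.

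**Figure D4:**
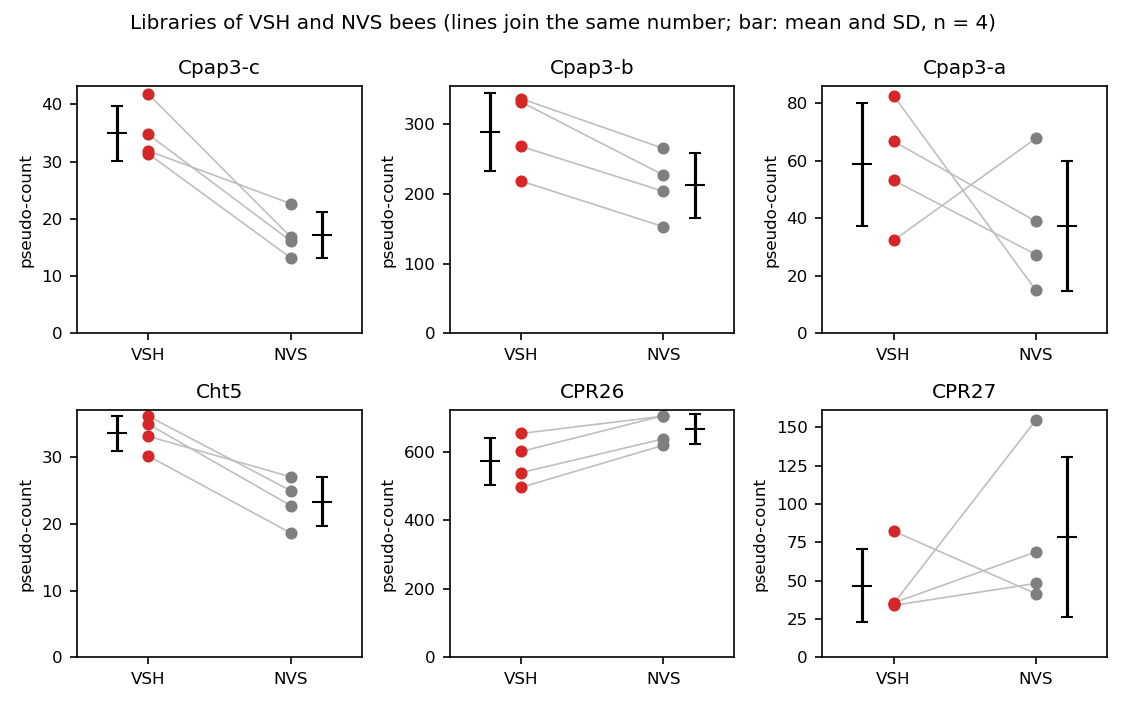
Pseudo-counts of 6 cuticle genes in the 4 VSH and 4 NVS libraries, with lines between libraries of the same number and, beside them, the mean and SD. VSH and NVS values of Cpap3-c (31.3 to 41.8 and 13.2 to 22.7) and Cht5 do not overlap, and all 4 lines of Cpap3-b fall to the right.

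Mean age was recorded for these 8 libraries. Older bees had lower values of CPR28 and Cpap3-b and higher values of CPF2, Cpap3-d and the apidermins, and none of these differences passed the threshold. In limma with group as a second term, 0 of 32 members passed the threshold, against 0.147% of all genes, and at an unadjusted p under 0.05 there were 8, with 6 slopes up and 2 down, against 7% and 5.27% of all genes. The slopes of VSH and NVS bees were not shown to differ: limma called 0 members and 0% of all genes for that difference, and at an unadjusted p under 0.05 there were 0 members, against 2.86% of all genes.

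CPR28 and Cpap3-b had lower values in older bees. CPR28 had 2242, 2009.6, 2256 and 1289 in VSH bees by increasing age and 2386, 1586, 1909 and 951 in NVS bees, so that the oldest library was the lowest of each group. The slope was -0.099 log2 units per day (standard error 0.018, limma adjusted p = 0.0524), with -0.078 in VSH libraries alone and -0.12 in NVS libraries alone. Cpap3-b was lower at each step of age in both groups, with values given above, and its slope was -0.074 log2 units per day (standard error 0.014, limma adjusted p = 0.0541). With VSH4 and NVS4 left out together the slope of CPR28 was -0.025 (limma adjusted p = 0.785) and that of Cpap3-b -0.072 (limma adjusted p = 0.392), so the slope of CPR28 rested on the oldest pair. For Cpap3-b it was -0.07 in VSH libraries alone and -0.076 in NVS libraries alone. The adjusted p of both genes crossed the threshold in some alternatives: over all of them it ran from 0.0215 to 0.785 for CPR28 and from 0.0462 to 0.648 for Cpap3-b.

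Positive slopes were seen in genes of several families, none past the threshold. CPF2, a structural protein gene, had 49.1, 69.7, 135 and 104 in VSH bees by increasing age and 56.7, 60.8, 96.7 and 109 in NVS bees, with a slope of 0.11 log2 units per day (standard error 0.03, limma adjusted p = 0.185). Cpap3-d had 83.6, 84.5, 227 and 127 in VSH bees and 105, 54.7, 198 and 186 in NVS bees. Its values were higher at the third and the fourth age than before, with a slope of 0.11 (standard error 0.045, limma adjusted p = 0.353). The deacetylase gene Cda5 had a slope of 0.033 (standard error 0.012, limma adjusted p = 0.289). Among the CPR genes, CPR20 had 251, 226, 305 and 276 in VSH bees by increasing age and 242, 237, 262 and 313 in NVS bees, with a slope of 0.033 (standard error 0.015). CPR13 had 22.01, 24.3, 29.6 and 20.98 in VSH bees and 13.9, 17.3, 30.4 and 34.5 in NVS bees. Its slope was 0.065 (standard error 0.042), and the 2 younger NVS libraries were its lowest. CPR5 had 152, 129, 126 and 85.04 in VSH bees and 149, 157, 80.2 and 135 in NVS bees, with a negative slope of -0.053 (standard error 0.028) and its low values in VSH4 and NVS3.

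The apidermins were high in the oldest library of each group. Apd-1 had 4.65, 0, 0.0362 and 177 in VSH bees by increasing age and 12.1, 0, 0 and 142 in NVS bees, and Apd-2 had 7.46, 0, 1.18 and 81.9 and 16.2, 2.58, 7.19 and 59.4. Both genes were low in the libraries of middle age, so that a straight slope describes them poorly. The slopes were 0.52 log2 units per day for Apd-1 (standard error 0.19, limma adjusted p = 0.293) and 0.34 for Apd-2 (standard error 0.13, limma adjusted p = 0.314). With VSH4 and NVS4 left out together, Apd-2 turned to -0.28 per day and Apd-1 was under the filter. Apd-3 had 0.789, 0, 10.01 and 11.2 in VSH bees and 2.32, 2.44, 2.12 and 7.45 in NVS bees, with no step of that size. Of these oldest libraries VSH4 had the high muscle and fat body sums given above. NVS4 had sums of 182 for muscle genes and 1482 for fat body genes, against 123 to 181 and 1117 to 1858 in the 6 younger libraries. CPR19 and CPF1 were also highest in NVS4. CPR19 had 9.49, 7.15, 1.51 and 16.4 in VSH bees and 1.49, 8.14, 1.45 and 39.1 in NVS bees, and CPF1 had 0.498, 4.97, 2.61 and 5.03 in VSH bees and 0.952, 7.57, 0.142 and 22.2 in NVS bees.

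**Figure D5:**
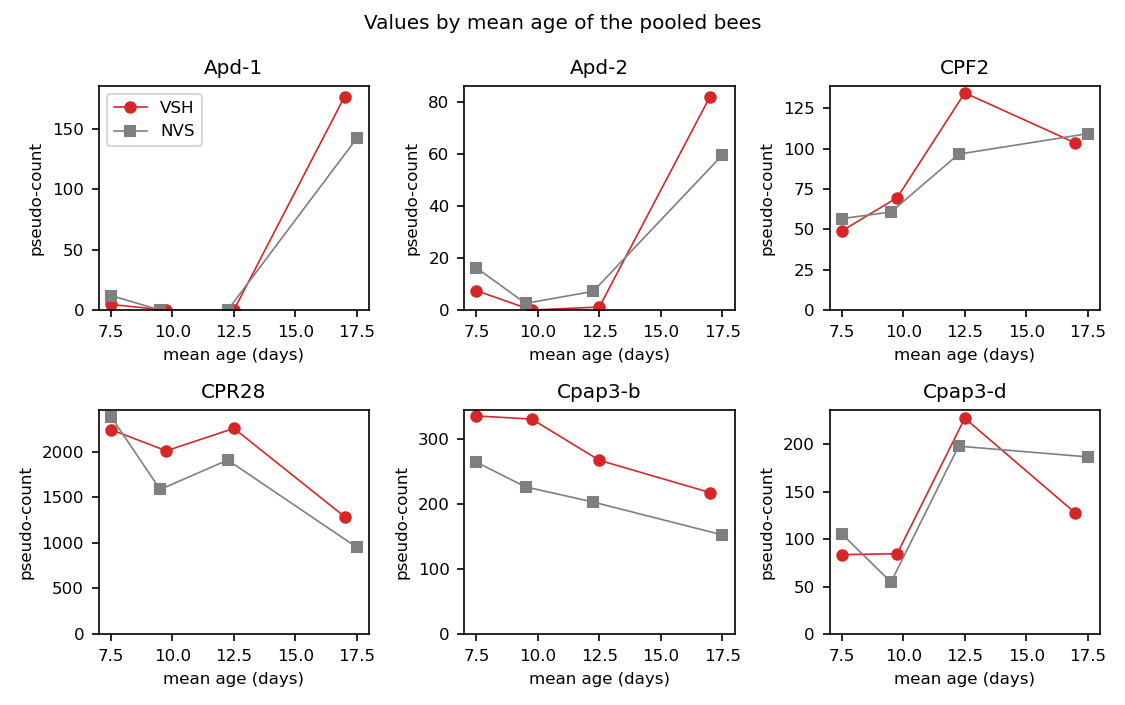
Pseudo-counts of 6 cuticle genes against the mean age of the pooled bees in days, for VSH (red circles) and NVS libraries (grey squares). CPR28 and Cpap3-b are lowest in the oldest library of each group, and Apd-1 is at 177 and 142 in VSH4 and NVS4 and at 12.1 or less in the other 6.

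Genes that act beside the cuticle proteins were counted on 3 lists. Over all genes tested, the share at an unadjusted p under 0.05 in either direction was 13% between foragers and nurses, 11.2% between VSH and NVS bees and 12.3% for age, and the counts of the lists stand beside these shares. Of the 15 tanning genes tested, limma called 1 lower and 0 higher in foragers than in nurses, and 0 between VSH and NVS bees, and at an unadjusted p under 0.05 there were 6 and 1. The gene called was ebony, an enzyme that joins dopamine to beta-alanine for tanning, with 11003 and 10802 in foragers, against 24991, 35904 and 31493 in nurses, and its log2 fold change was -1.48 (standard error 0.17, limma adjusted p = 0.0478). It was called in 7 of 14 settings, with adjusted p from 0.00945 to 0.580 in limma. Without NUR2, 2 were called, ebony and PPO, the prophenoloxidase of melanin formation and immunity, with 143 and 224 in foragers, against 802, 1368 and 668 in nurses (limma adjusted p = 0.0229, and up to 0.624 in the other settings). The list of chitin synthesis and cuticle assembly had 8 genes tested, with Cyp314a1 and CYP315A1 of moulting hormone synthesis among them. Limma called 0 of them in either comparison. At an unadjusted p under 0.05 limma gave 2 between foragers and nurses and 2 between VSH and NVS bees. Of 17 genes of moulting hormone signalling it called 0 between foragers and nurses and 0 between VSH and NVS bees, with 4 and 5 at an unadjusted p under 0.05. With the replicate block it called 1, Kr-h1, a transcription factor downstream of juvenile hormone, which had 176, 186, 105 and 251 in VSH libraries, against 269.6, 381, 310.2 and 426 in NVS libraries (limma adjusted p = 0.0163, and up to 0.465 in the other settings). Without NUR2 it called Hr38, a nuclear receptor, which had 3057 and 3608 in foragers, against 1324, 1732 and 1819.9 in nurses (limma adjusted p = 0.0429, and up to 0.598 in the other settings). No list gene was called for age, where 6 tanning genes, 1 assembly gene and 2 hormone genes had an unadjusted p under 0.05.

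Outside the members, the genes whose log2 values went most closely with the mean standardised member value were LOC100578709 (Pearson's r = 0.964), LOC411520 (0.939) and LOC725217 (0.937) over the 8 VSH and NVS libraries. Over the 5 FOR and NUR libraries they were LOC413976 (0.999), LOC552476 (0.997) and LOC725218 (0.996), where the member mean lay at 1.05 in NUR2 and between -0.317 and -0.207 in the other 4 libraries. These correlations are descriptions of libraries that share their scaling, and those of the second table rest on NUR2.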

How the data were processed

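Per the submitters' processing notes and the methods, the authors used CASAVA 1.8.2 and FastQC on the reads, TopHat2 with Bowtie2 2.2.3 to align them, HTSeq 0.6.1p1 to count them for each gene, and then scaled the counts with edgeR 3.4.0 (Relative Log Expression), in each table on its own. The deposited signal values are these normalised pseudo-counts from the authors. Of the values above 0, 0% are whole numbers (tolerance 1e-06), so reads could not be recovered and no count test was run. Values below 1e-10 were set to 0. The deposited columns do not carry the depth per library, and no interval from counting was given.

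Groups were compared in limma 3.58.1 under R 4.3.3 (lmFit, eBayes with a trend) on log2 of value plus 1, as two-sided tests, and p-values were adjusted by Benjamini-Hochberg across every gene past the filter, at a threshold of 0.05. Fold changes on this scale understate changes of low genes. Mean age in days was a term beside the group in the fit of age. The fits were also run on simulated data with a common spread for all genes. Changes were set there only in genes with a mean of at least 50, so that run did not cover members with lower values. Same-numbered VSH and NVS libraries deviated together from their group means, at correlations of 0.161, 0.215, 0.276 and 0.388 for numbers 1 to 4 (8133 genes with a mean of at least 50). Libraries of different numbers ran from -0.253 to 0.279, the highest being VSH1 with NVS2. All same-number values were over 0.1 and the numbers carry age-matched pools, so the numbers served as blocks in an alternative fit. The main fit of VSH against NVS bees had no pairing term. Foragers and nurses share 2 numbers, too few to pair them.

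Every gene that fits the symbol rule is counted as a member. CPR8, CPR9 and CPR21 are in the counts without their values being given. Full values are given for up to 8 members each way with the smallest p and a group mean of at least 10, and for the 2 most abundant of each family. CPR6, CPR11, CPR19 and Cpap3-c in foragers and nurses were described for their values in NUR2. The members, the lists of tanning, assembly, hormone and marker genes and the alternatives were chosen with earlier results of these data known. Of the 50 members, 48 matched the RefSeq gene table of Amel_HAv3.1, used for names and neighbours alone. Sequence features were not analysed here.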

Additional observations from a re-analysis of the deposited data

Results flagged for a closer look

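Within the groups of 4 libraries, 9 of 64 sets of member values (14.1%) had 1 library far from the other 3 by Dixon's test, where chance gives about 1 in 20 and 5.89% of 20405 such sets over all genes did. The apidermin genes stood out in the oldest bees: Apd-1 had 177 in VSH4 against 0 to 4.65 in the other VSH libraries and 142 in NVS4 against 0 to 12.1 in the other NVS libraries, Apd-2 had 81.9 in VSH4 against 0 to 7.46, and Apd-3 had 7.45 in NVS4 against 2.12 to 2.44. VSH4 also held the high muscle and fat body sums, and NVS4 did not. The part of these marker cells in the apidermin values was not tested. In VSH3 there were 3 CPR genes apart: CPR22 (GB46312) had 374 against 142 to 181 in the other VSH libraries, CPR27 had 82.3 against 33.9 to 35.5, and CPR17 had 14.5 against 6.74 to 8.06. CPR17 and CPR22 lie in 1 cluster of the genome. The deacetylase gene Cda5 had 685 in NVS4 against 502 to 529 in the other NVS libraries, and CPR12 had 1183 in NVS2 against 969 to 996.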

How the results depend on the processing

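No member was called between VSH and NVS bees in any of 19 alternatives or between foragers and nurses in any of 13. The alternatives changed the pseudocount (0.5, 4), the filter (none, or a mean of 10), the scaling (equal column totals, quantiles) and eBayes (robust), and added the replicate block, mean age as a covariate (VSH and NVS bees alone) and each library left out in turn, and, chosen after seeing the data, the youngest pair (VSH1 and NVS1) or the oldest pair (VSH4 and NVS4) left out together. For age, 15 of 20 alternatives called no member. Rescaling to equal totals called 1 (CPR28), quantile normalisation 1 (Cpap3-b), and leaving out 1 library at a time gave 0 to 2: CPR28 and Cpap3-b without VSH3, CPR28 without NVS2 and CPR28 without NVS3. The cause was not tested.

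The median log2 fold change of VSH over NVS bees over the members, -0.035, was 0.073 without VSH1 and NVS1 and 0.12 without VSH4 and NVS4, and ran from -0.044 to 0.088 with 1 library left out. Signs turned for CPR17 between VSH and NVS bees without VSH4 and NVS4 (0.13) and for CPR13 between foragers and nurses under quantile normalisation (-0.038). With 1 library left out, VSH over NVS ran from -0.21 to 0.074 for Osi23, -0.65 to 0.019 for CPR25, -0.023 to 0.42 for CPR28 and -0.96 to 0.088 for CPR17, and FOR over NUR from -0.27 to 0.53 for CPR20, -0.28 to 0.52 for CPR13 and -0.13 to 1.503 for CPR22. Age slopes turned for CPR13 (-0.0056), Cda4 (0.0053), CPR25 (0.023) and Cpap3-a (0.056) in VSH libraries alone, for CPR25 without VSH1 and NVS1 (0.023), for Apd-2 (-0.28) and CPR19 (-0.24) without VSH4 and NVS4, and for Cpap3-a with 1 library left out (-0.10 to 0.021). Where an arm was left with 1 library, that library was assumed to vary like the rest.

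Counts over all genes moved more. Between VSH and NVS bees 4 genes were called, against 127 with the replicate block, 2 with no filter, 1 without the oldest pair, 0 without the youngest and 0 to 11 with 1 library left out. Between foragers and nurses 10 were called, against 4 with a pseudocount of 0.5, with no filter or with a minimum mean of 10, 6 with the replicate block and 0 to 85 with 1 library left out, 85 of them without NUR2. For age 15 were called, against 40 with robust eBayes, 0 with no filter, in VSH or NVS libraries alone or without the youngest or the oldest pair, and 0 to 62 with 1 library left out. In foragers and nurses the block over numbers 2 and 3 called no member (11 at an unadjusted p under 0.05, against 15.5% of all genes, median -0.67) and equals leaving out NUR1 in its fold changes. The block changed no other call of a member. No paired analysis was possible for age because the libraries of a number have nearly the same age.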
